A study of Mus musculus with 6 samples.

Results

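The genes described here are 10 chemokine genes that stromal cells are known to express: Ccl2, Ccl7, Ccl9, Ccl11, Ccl19, Cxcl1, Cxcl5, Cxcl14, Cxcl16 and Cx3cl1. They were found by gene symbol among the 17457 genes of the deposited expression table, and all 10 were present. Expression was measured by RNA sequencing of mesenchymal stem cells (MSCs) from the long bones of 10-week-old female wild-type C57BL/6J mice. Primary MSCs (2 libraries) were sorted directly from collagenase-digested bone as CD45- Ter119- CD31- Sca-1+ PDGFRα+ cells. Cultured MSCs (4 libraries) were sorted with the same antibodies, but only after the whole bone digest had spent 10 days in MesenCult medium. The primary libraries were pools from 4 and from 6 mice, and each cultured library came from 2 mice. Because the mixed digest was cultured before sorting, a change in the cells present and a change within the same cells cannot be told apart.

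Chemokines are small secreted proteins that guide migrating leukocytes through G protein-coupled receptors, and they are named by the spacing of their first cysteines (CC, CXC or CX3C). Bone stromal cells use them to hold haematopoietic cells in the marrow and to call monocytes and neutrophils in inflammation. Atypical chemokine receptors bind the same ligands without G protein signalling and clear them from the surroundings. Many inflammatory chemokine genes are targets of the transcription factor NF-kB, and their mRNAs are short-lived.

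Values are FPKM (fragments per kilobase of transcript after division by library size), which can be compared between genes because they are scaled to length. The libraries summed to between 559601 and 642497 FPKM, and the table gives no read numbers for single genes. The markers used for sorting were present in both groups. Ly6a (Sca-1) had 1056 to 1711 FPKM over the 6 libraries. Pdgfra had 35.5 to 43.1 FPKM in cultured MSCs and 66.8 and 72.7 FPKM in primary MSCs. Ptprc (CD45) reached at most 0.47 FPKM in any library and Pecam1 (CD31) at most 0.62. Changes were tested with limma on log2(FPKM + 0.1) over the 11405 genes that reached 1 FPKM in 2 or more libraries, a scale that understates changes of low values. Rose and fell are used only for genes with an adjusted p (Benjamini-Hochberg, limma) under 0.05, and give the direction from primary to cultured MSCs. With 4 libraries against 2, the lowest p possible in an exact permutation test is 0.067. The log2 fold change of the median gene was 0.45, and it was 0.02 after median ratio scaling, so calls of named genes that depend on this scaling are given with them. Ly6a did not pass (-0.21, adjusted p = 0.313), but it was called lower in culture with median ratio scaling (-0.65, adjusted p = 0.0133). It was -0.56 without primary replicate 1 and 0.14 without primary replicate 2. Pdgfra fell (-0.82, adjusted p = 0.000486). Of 9 markers of sorted MSCs, 5 fell and 1 rose, against 17.6% and 48.1% of all genes tested. Fits without a primary library leave a single library in that group, so only effect sizes of named genes are given for them.

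The set of chemokine transcripts differed between cultured and primary MSCs rather than moving in 1 direction. Of the 10 genes, 4 rose (Ccl7, Ccl9, Cxcl5 and Cx3cl1), against 48.1% of all genes tested. Another 5 fell (Ccl11, Ccl19, Cxcl1, Cxcl14 and Cxcl16), against 17.6% of all genes tested. Ccl2 did not pass the test. The cultured and primary values did not overlap for 9 of the 10 genes, a property shared by 72.8% of all genes tested. In 4 of them every cultured value was the higher (52.3% of all genes), and in 5 the lower (20.4%). The median log2 fold change was -0.44 over the 10 genes and 0.45 over all genes tested. All 10 genes passed the filter on low values, but Ccl11 and Ccl19 passed it only through the primary libraries and Ccl9 and Cxcl5 only through the cultured libraries. For these 4 genes a difference follows from the filter, so the tallies are a description. With median ratio scaling 3 genes rose (29.3% of all genes) and 5 fell (28.6%), because Ccl7 no longer passed.

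**Figure D1:**
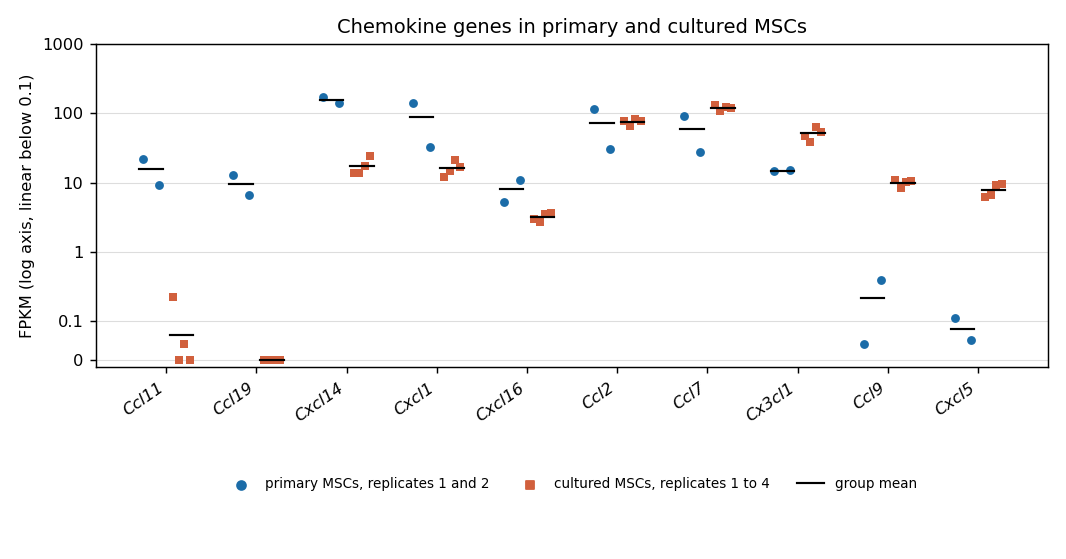
FPKM of the 10 chemokine genes on a logarithmic axis that is linear below 0.1, ordered from the largest fall to the largest rise. Circles are the 2 primary libraries, squares the 4 cultured libraries and black lines the group means. Ccl19 stands at 0 in all 4 cultured libraries, Ccl9 and Cxcl5 lie under 0.5 in both primary libraries, and only the Ccl2 values of the groups overlap.

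Promoter sequences were in the RefSeq table (GRCm38.p6) for 5 of the 10 genes, and 4 are shown because they come from the genes with opposite changes: Cxcl1 and Ccl19 fell, Ccl9 and Cx3cl1 rose. Each of the 4 is the 250 bases before the annotated start of transcription, read 5′ to 3′ on the strand of the gene. Capitals mark matches to the NF-kB consensus (searched on both strands) and to the TATA box TATAAA (searched on the given strand).
Cxcl1, chr5:90890995-90891244, plus strand: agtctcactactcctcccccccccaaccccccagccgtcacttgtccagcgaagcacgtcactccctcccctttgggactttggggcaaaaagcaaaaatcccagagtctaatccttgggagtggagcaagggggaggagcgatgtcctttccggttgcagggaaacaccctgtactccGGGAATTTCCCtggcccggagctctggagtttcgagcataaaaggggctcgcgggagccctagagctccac
Ccl19, chr4:42756366-42756615, minus strand: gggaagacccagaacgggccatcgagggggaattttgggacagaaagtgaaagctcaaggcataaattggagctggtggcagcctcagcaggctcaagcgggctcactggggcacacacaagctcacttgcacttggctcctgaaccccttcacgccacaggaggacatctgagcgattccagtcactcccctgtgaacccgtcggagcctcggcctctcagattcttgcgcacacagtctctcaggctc
Ccl9, chr11:83578637-83578886, minus strand: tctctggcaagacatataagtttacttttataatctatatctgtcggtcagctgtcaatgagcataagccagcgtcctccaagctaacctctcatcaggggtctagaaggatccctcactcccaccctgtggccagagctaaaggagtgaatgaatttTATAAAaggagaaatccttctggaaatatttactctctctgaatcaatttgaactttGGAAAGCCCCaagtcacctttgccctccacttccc
Cx3cl1, chr8:94771930-94772179, plus strand: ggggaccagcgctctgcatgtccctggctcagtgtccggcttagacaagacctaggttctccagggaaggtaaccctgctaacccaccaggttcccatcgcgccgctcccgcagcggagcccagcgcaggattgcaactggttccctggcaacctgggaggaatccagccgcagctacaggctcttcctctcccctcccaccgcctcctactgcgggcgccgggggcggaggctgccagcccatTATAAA
The NF-kB consensus was matched in Cxcl1, which fell, by overlapping matches on both strands at bases -71 to -61 from the start, and in Ccl9, which rose, at bases -35 to -26. It was matched in 7.25% of the 32851 windows of this length in the table. No match was in these windows of Ccl19 and Cx3cl1, nor in that of Cxcl14, whose window is not shown because it precedes a start inside the annotated gene. TATAAA was matched in Ccl9 at bases -92 to -87 and in Cx3cl1 at bases -6 to -1, and in 7.59% of all windows. GC content was 43.6% in the Ccl9 window and 58.4% to 64.8% in the other 4. A match is a string of letters and does not show that a factor binds there. Ccl2, Ccl7, Ccl11, Cxcl5 and Cxcl16 are named only.

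The CC chemokines that attract monocytes, Ccl2 and Ccl7, were among the most abundant of the 10 genes in both groups. Ccl2 (MCP-1), the main ligand of the monocyte receptor CCR2, stood at 76.4, 65.2, 82.2 and 76.3 FPKM in cultured replicates 1 to 4 and at 114 and 30.3 FPKM in primary replicates 1 and 2. The cultured libraries lay close together between the primary ones. Its log2 fold change was 0.34 (SE 0.43, adjusted p = 0.505 from limma), and no change in either direction could be called. Which primary library was kept decided the direction of Ccl2. The log2 fold change was 1.30 without primary replicate 1. Leaving out primary replicate 2 instead turned it to -0.61. It was -0.09 with median ratio scaling and -0.02 with quantile normalization.

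Ccl7 (MCP-3), which shares CCR2 with Ccl2, stood at 131, 107, 125 and 119 FPKM in cultured replicates 1 to 4, against 91.9 and 27.3 FPKM in the primary libraries. All 4 cultured values lay above both primary values. The rise was 1.26 on the log2 scale (SE 0.40, adjusted p = 0.0221 from limma), but it did not pass with median ratio scaling (0.83, adjusted p = 0.110), with quantile normalization (0.87, adjusted p = 0.0863) or without cultured replicate 1 (1.22, adjusted p = 0.0512). It was 2.14 without primary replicate 1 and 0.39 without primary replicate 2. The ratio of Ccl7 to Ccl2 within a library does not depend on how libraries are scaled. It was 1.71, 1.64, 1.52 and 1.56 in the cultured libraries and 0.804 and 0.899 in the primary libraries, with means of 1.61 ± 0.0834 (SD, n = 4) and 0.851 ± 0.0671 (SD, n = 2). The ratios of the groups did not overlap. This ratio, and that of Cxcl5 to Cxcl1 given further on, were chosen after the values were seen and are a description with no test.

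Ccl11 and Ccl19 nearly vanished from the libraries of cultured MSCs. Ccl11 (eotaxin), which attracts eosinophils through CCR3, stood at 21.7 and 9.23 FPKM in primary replicates 1 and 2 and at 0.22, 0, 0.04 and 0 in cultured replicates 1 to 4. The log2 fold change was -6.62 (SE 0.56, adjusted p = 2.85e-05 from limma). Ccl19, the ligand of CCR7 on T cells and dendritic cells, stood at 12.7 and 6.52 FPKM in the primary libraries and was listed at 0 in all 4 cultured libraries, so no fold is given (adjusted p = 3.36e-06 from limma). Both passed the filter only through the primary libraries. The mouse genome holds annotated pseudogenes of Ccl19, so the assignment of its reads is uncertain. Markers of other cells also differed between the groups. All 4 tested osteoblast markers fell, against 17.6% of all genes tested. The list summed to 379 and 232 FPKM in primary MSCs against 26.0 to 32.9 FPKM in cultured MSCs. All 4 tested erythroid markers fell as well, against the same 17.6%. Each passed the filter only through the primary libraries, so these calls follow from the filter. The erythroid list summed to 239 and 150 FPKM in primary MSCs against 0.20 to 0.61 FPKM in cultured MSCs. The pericyte marker Rgs5, named after its values were seen, had 21.4 and 10.1 FPKM in primary MSCs against 0.13 to 0.58 FPKM in cultured MSCs. The sum of its pericyte and smooth muscle list went the other way. That sum was 76.9 and 72.2 FPKM in primary MSCs against 317 to 348 FPKM in cultured MSCs. Most of it in culture came from Acta2, with 281 to 316 FPKM against 27.3 and 13.1 FPKM in primary MSCs. Lymphocyte markers (5 in the table) summed to 0.98 and 0.58 FPKM in primary MSCs and to at most 0.07 FPKM in culture. The 8 endothelial markers summed to 4.04 and 6.36 FPKM against 1.57 to 2.40 FPKM, most of it in primary MSCs from Tek (2.71 and 3.70 FPKM), also named after its values were seen. The part of any of these cells in the fall of Ccl11 and Ccl19 was not tested.

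Ccl9 rose from near the floor of the scale. Ccl9, a mouse chemokine also known as MIP-1γ that acts through CCR1 on monocytes and osteoclast precursors, stood at 10.7, 8.38, 10.3 and 10.4 FPKM in cultured replicates 1 to 4, against 0.04 and 0.39 FPKM in the primary libraries. It rose by 5.26 on the log2 scale (SE 0.44, adjusted p = 2.54e-05 from limma). The rise was 4.35 without primary replicate 1 and 6.16 without primary replicate 2. Ccl9 is also known as a product of myeloid cells, and markers of macrophages were higher in the cultured libraries, as given further on.

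The CXC chemokines that attract neutrophils moved in opposite directions. Cxcl1 (KC), a ligand of the neutrophil receptor CXCR2, stood at 141 and 33.0 FPKM in primary replicates 1 and 2 and at 12.1, 14.6, 20.9 and 16.5 FPKM in the cultured libraries. The primary libraries differed 4.29-fold, and both lay above all 4 cultured libraries. The log2 fold change was -2.11 (SE 0.50, adjusted p = 0.00614 from limma). It ranged from -1.07 when primary replicate 1 was left out to -3.16 when primary replicate 2 was. Cxcl5 (LIX), another CXCR2 ligand, stood at 0.11 and 0.05 FPKM in the primary libraries and at 6.30, 6.62, 9.37 and 9.49 FPKM in the cultured libraries. It rose by 5.48 on the log2 scale (SE 0.27, adjusted p = 2.05e-06 from limma). Within a library the ratio of Cxcl5 to Cxcl1 was 0.449 to 0.574 in cultured MSCs and 0.000779 and 0.00152 in primary MSCs. Cxcl5 passed the filter only through the cultured libraries, so a gap in this ratio follows from the choice of the pair. Cxcl1 still exceeded Cxcl5 in every library.

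Cxcl14 was the most abundant of the 10 genes in primary MSCs. Cxcl14 (BRAK) is a chemokine that many tissues make at rest and whose receptor is less well defined. It stood at 173 and 140 FPKM in the primary libraries and at 13.8, 13.9, 17.7 and 24.6 FPKM in the cultured libraries. All cultured values were far below both primary values, and the primary libraries differed only 1.23-fold. The log2 fold change was -3.19 (SE 0.24, adjusted p = 1.43e-05 from limma) and lay between -3.37 and -3.04 when any library was left out.

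The transmembrane chemokines also diverged. Both Cxcl16 and Cx3cl1 are made on a mucin-like stalk and are released by the proteases ADAM10 and ADAM17. Cxcl16, which binds CXCR6 on lymphocytes and also takes up oxidised lipoprotein, stood at 5.33 and 11.01 FPKM in the primary libraries and at 3.03, 2.68, 3.52 and 3.69 FPKM in the cultured libraries. It fell by 1.23 on the log2 scale (SE 0.29, adjusted p = 0.00622 from limma), by 1.75 without primary replicate 1 and by 0.72 without primary replicate 2. Cx3cl1 (fractalkine), the ligand of CX3CR1 on monocytes and microglia, stood at 14.5 and 15.03 FPKM in the primary libraries and at 47.7, 38.6, 64.3 and 54.5 FPKM in the cultured libraries. It rose by 1.76 on the log2 scale (SE 0.19, adjusted p = 9.5e-05 from limma) and by 1.35 with quantile normalization. Every cultured library lay well above both primary libraries, which were nearly equal.

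Added together, the 10 genes reached 257 to 334 FPKM across cultured libraries and 575 and 273 FPKM in primary replicates 1 and 2, so the summed levels of the groups overlapped. The make-up of the sum differed. Cxcl14 made up 30.1% and 51.4% of it in the primary libraries and 4.57% to 7.80% in the cultured libraries. Cxcl1 made up 24.6% and 12.1% in primary MSCs and 4.01% to 6.26% in cultured MSCs. Ccl7 made up 16.0% and 9.98% in primary MSCs and 37.6% to 43.4% in cultured MSCs, and Cx3cl1 2.53% and 5.50% in primary MSCs and 15.04% to 19.3% in cultured MSCs. Ordered by mean level, cultured MSCs had Ccl7, Ccl2 and Cx3cl1 first, with ranges that did not overlap, followed by Cxcl14 and Cxcl1, whose ranges overlapped. Primary MSCs had Cxcl14, Cxcl1, Ccl2 and Ccl7 first, and the ranges of neighbours in this order overlapped.

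**Figure D2:**
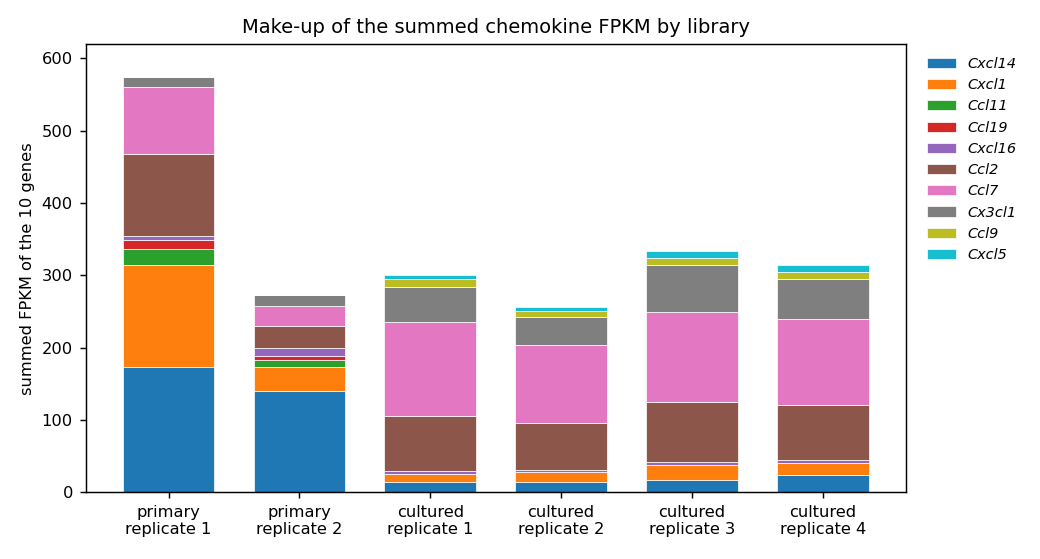
Summed FPKM of the 10 chemokine genes in each library, with each gene as a coloured segment. Cxcl14 and Cxcl1 form the lower part of both primary bars, while Ccl7, Ccl2 and Cx3cl1 fill most of the 4 cultured bars, which reach 257 to 334 FPKM.

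Much of the uncertainty lay in the primary libraries. Primary replicate 1 was at least 2 times primary replicate 2 for 5 of the 10 genes (Ccl2, Ccl7, Ccl11, Cxcl1 and Cxcl5), against 6.97% of all genes tested. The reverse held for Ccl9 and Cxcl16, against 6.49% of all genes tested, and Cxcl5 and Ccl9 were near 0 in both. The same threshold was passed by 2 of 20 NF-kB genes, 3 of 12 mRNA turnover genes, 4 of 16 other inflammatory genes and 1 of 27 upstream receptors and adaptors, and in reverse by 0, 0, 1 and 2 of them. Examples chosen after their values were seen go in both directions. Nfkbia stood at 623 and 263 FPKM in primary replicates 1 and 2, Zfp36 at 310 and 125, Icam1 at 53.8 and 22.5 and Il6 at 10.8 and 2.55, while Ltbr, the lymphotoxin receptor, stood at 12.9 and 28.1. The pools of 4 and of 6 mice are not assigned to the libraries by the labels, and the part of pool, handling or cell make-up in this difference was not tested.

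Chemokine genes that lie side by side on a chromosome moved in the same direction in some groups and in opposite directions in others. Many of these directions follow from the filter, as marked below. On chromosome 11, Ccl2 (82035577 to 82037452) and Ccl7 (82045712 to 82047525) lie just before Ccl11 (82057832 to 82062955) and Ccl8 (82115185 to 82116799), in GRCm38.p6. Ccl8 (MCP-2), a further monocyte attractant, fell with Ccl11, from 11.9 and 8.44 FPKM in the primary libraries to 0, 0.21, 0.21 and 0.58 FPKM in the cultured libraries (log2 fold change -5.15, adjusted p = 0.000251 from limma). Ccl11 and Ccl8 passed the filter only through the primary libraries, so their calls follow from the filter. Ccl2 and Ccl7 beside them kept at least 65.2 and 107 FPKM in every cultured library. Further along the chromosome, Ccl5, Ccl9 and Ccl6 all rose, against 48.1% of all genes tested. Ccl9 and Ccl6 passed the filter only through the cultured libraries, so their calls follow from the filter. Ccl5 (RANTES), an attractant of T cells and monocytes, ranged from 3.75 to 10.3 FPKM in cultured MSCs, above 1.29 and 0.10 FPKM in primary MSCs (log2 fold change 3.57, adjusted p = 0.00254). Ccl6, a mouse chemokine related to Ccl9, had 0.22 FPKM in either primary library and between 0.89 and 1.76 FPKM in cultured MSCs (log2 fold change 2.10, adjusted p = 0.000805).

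On chromosome 5, Cxcl5 (90759298 to 90761625) and Cxcl3 (90786101 to 90788093) rose and Cxcl1 (90891245 to 90893121) fell. Over all genes tested 48.1% rose and 17.6% fell. Cxcl5 and Cxcl3 passed the filter only through the cultured libraries, so their calls follow from the filter. Cxcl3, a CXCR2 ligand like its neighbours, had 1.46, 1.41, 1.98 and 3.28 FPKM in cultured replicates 1 to 4, and primary MSCs listed it at 0 (adjusted p = 3.4e-05 from limma). Between Cxcl5 and Cxcl3 lie the platelet chemokine genes Ppbp and Pf4, neither of which passed the test (adjusted p = 0.0677 and 0.0825). Ppbp passed as lower with median ratio scaling (-1.14, adjusted p = 0.0133), and Pf4 as higher without cultured replicate 3 (1.22, adjusted p = 0.0211). Ppbp was -1.05 when primary replicate 2 was left out.

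**Figure D3:**
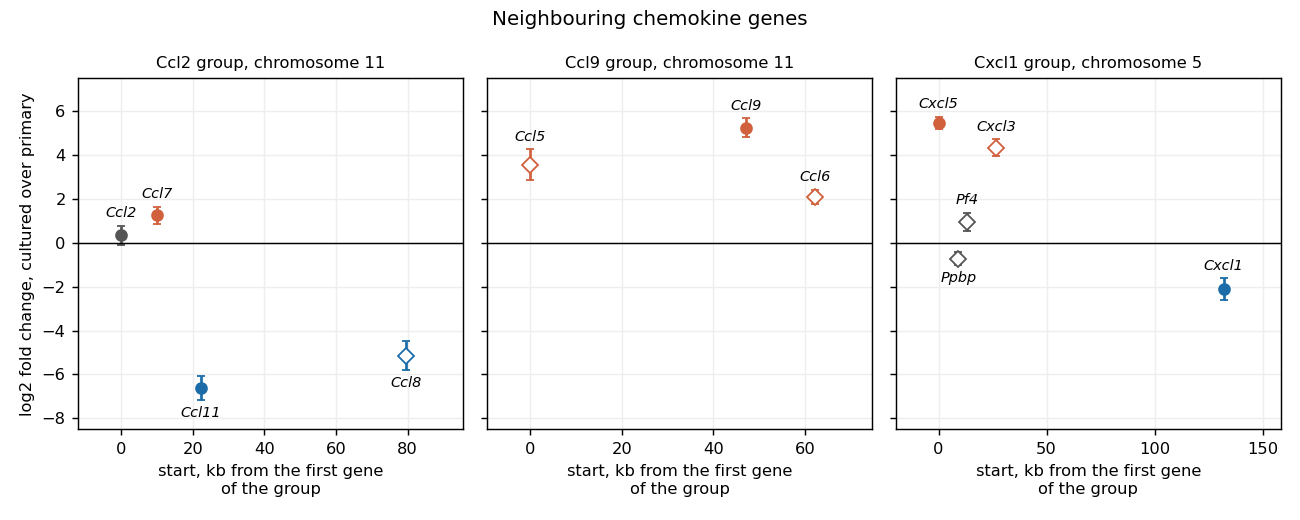
Log2 fold change of cultured over primary MSCs for tested chemokine genes against the distance of their start from the first gene of each group, in kilobases. Filled circles are among the 10 genes and open diamonds are other chemokines, bars are the standard error from limma, and orange, blue and grey mark genes that rose, fell or did not pass. Ccl7 and Ccl11, at 10.1 and 22.3 kb, stand at 1.26 and -6.62.

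Of 31 further chemokine genes listed, 26 were in the table and 11 passed the filter. Of these, 3 rose (Ccl5, Ccl6 and Cxcl3), against 48.1% of all genes tested. Another 2 fell (Ccl8 and Cxcl13), against 17.6% of all genes tested, and 6 did not pass. Their median log2 fold change was 0.50 against 0.45 for all genes. Ccl6 and Cxcl3 passed the filter only through the cultured libraries and Ccl8 and Cxcl13 only through the primary libraries, so these 4 calls follow from the filter. With median ratio scaling 3 rose and 4 fell, against 29.3% and 28.6% of all genes tested. Cxcl12, which holds haematopoietic stem cells in the marrow through CXCR4, was the most abundant of them and exceeded every one of the 10 genes in all libraries, with 222 to 374 FPKM in cultured MSCs against 261 and 258 FPKM in primary MSCs. Its log2 fold change was 0.19 (adjusted p = 0.454) and it was -0.25 with median ratio scaling. Cxcl13, which attracts B cells, had 4.11 and 4.74 FPKM in primary MSCs against at most 0.10 FPKM in cultured MSCs (log2 fold change -4.88, adjusted p = 1.99e-05). Ccl25 and Ccl27a did not pass (adjusted p = 0.111 and 0.248), and Ccl25 was 0.79 without primary replicate 2. Ccl27a was called lower with median ratio scaling (-0.77, adjusted p = 0.026) and with quantile normalization (-0.67, adjusted p = 0.0372). Reads of Ccl27a may be shared with its near-identical copy Ccl27b. Cxcl10, which interferon induces, stood at 4.61 and 0.04 FPKM in the primary libraries and at 0.90 to 2.2 FPKM in cultured ones, and its direction depended on the primary library kept (3.27 without primary replicate 1 and -1.80 without primary replicate 2).

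Receptors of these ligands were represented almost only by atypical receptors, and the 5 receptor genes that passed the filter fell. Of 24 receptor genes listed, 19 were in the table and 5 passed the filter, Ackr1, Ackr2, Ackr3, Ackr4 and Ccrl2. All 5 fell, against 17.6% of all genes tested, and their values in the groups did not overlap. Ackr1, Ackr2 and Ccrl2 passed the filter only through the primary libraries, so their calls follow from the filter. With no filter 4 of 18 receptor genes rose and 6 fell, against 5822 and 2411 of all 16845 genes in that fit. Ackr2, which scavenges inflammatory CC chemokines such as Ccl2, Ccl7 and Ccl11, stood at 43.1 and 48.8 FPKM in the primary libraries and at 0.06, 0.04, 0.21 and 0 FPKM in the cultured libraries (log2 fold change -8.14, SE 0.43, adjusted p = 2.88e-06 from limma). Ackr4, which removes Ccl19 and Ccl25, dropped from 21.7 and 31.6 FPKM in primary MSCs to between 1.08 and 3.00 FPKM in culture (log2 fold change -3.75, adjusted p = 6.04e-05). Ackr3, which scavenges Cxcl12, stayed the most abundant of them, with 376 and 331 FPKM in primary MSCs against 31.5 to 51.2 FPKM in cultured MSCs (log2 fold change -3.15, adjusted p = 3.99e-06). Ackr1, which binds both CC and CXC chemokines, had 7.97 and 6.12 FPKM in primary MSCs and was listed at 0 in cultured replicates 1, 3 and 4. Ccrl2, which binds the attractant chemerin, had a log2 fold change of -3.68 (adjusted p = 0.000603). The other 14 receptor genes reached at most 0.66 FPKM in any library.

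**Figure D4:**
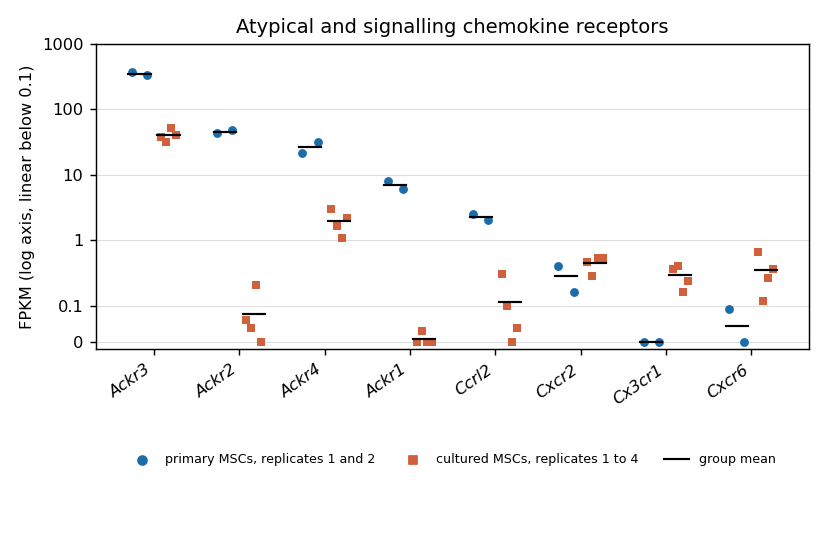
FPKM of 5 atypical or related chemokine receptor genes and of 3 signalling receptors, on a logarithmic axis that is linear below 0.1. Circles are the 2 primary libraries, squares the 4 cultured libraries and black lines the group means. Ackr1 to Ackr4 and Ccrl2 lie lower in every cultured library, while Cxcr2, Cx3cr1 and Cxcr6, chosen after their values were seen, stay at or under 0.66 FPKM.

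Of 12 listed proteases and protease regulators that release or trim chemokines, 9 were tested. Of the 9, 2 rose and 4 fell, against 48.1% and 17.6% of all genes tested. Adam10, which sheds Cxcl16 and Cx3cl1, rose from 15.6 and 16.6 FPKM in the primary libraries to 34.0 to 35.7 FPKM in the cultured libraries (log2 fold change 1.10, adjusted p = 3.4e-05 from limma). Adam17, named after its values were seen, had a log2 fold change of 0.19 (adjusted p = 0.286). Dpp4 (CD26), which clips the first residues of many chemokines and so weakens them, had 20.7 and 28.7 FPKM in primary MSCs against 0.47 to 0.71 FPKM in cultured MSCs (log2 fold change -5.18, adjusted p = 1.7e-06). The gelatinase Mmp2 and the collagenase Mmp13 fell, with log2 fold changes of -3.13 and -1.38. Mmp13 did not pass without primary replicate 1 (-0.65, adjusted p = 0.171). Mmp12, a macrophage elastase, had between 1.15 and 5.58 FPKM in cultured MSCs, lowest in replicate 3, and primary MSCs listed it at 0. Dpp4 passed the filter only through the primary libraries and Mmp12 only through the cultured libraries, so both calls follow from the filter.

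Of 27 tested receptors and adaptors of the cytokine and microbial signals that induce chemokine genes, 11 rose, 5 fell and 11 did not pass. Over all genes tested 48.1% rose and 17.6% fell. The median of the list was 0.27 against 0.45 for all genes. With median ratio scaling 10 rose and 8 fell, against 29.3% and 28.6% of all genes tested. The largest rises were of Tlr6, a co-receptor of Tlr2, by 2.32, of Il6st (gp130) by 1.67 and of the TNF receptor Tnfrsf1b by 1.48 on the log2 scale. Il1rl2, the receptor of interleukin 36, fell by 2.16, the interferon gamma receptor chain Ifngr1 by 1.28 and Tlr2, a receptor of bacterial lipoproteins, by 1.05. Tlr6 passed the filter only through the cultured libraries and Il1rl2 only through the primary libraries, so both calls follow from the filter.

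Of 20 tested NF-kB subunits and regulators, 5 rose, 5 fell and 10 did not pass. Over all genes tested 48.1% rose and 17.6% fell. With median ratio scaling 3 NF-kB genes rose and 11 fell, against 29.3% and 28.6% of all genes tested. The inhibitor Nfkbia, itself a target of NF-kB, had 623 and 263 FPKM in primary MSCs against 42.3 to 56.4 FPKM in cultured MSCs (log2 fold change -2.99, SE 0.30, adjusted p = 6.65e-05 from limma). Tnfaip3 (A20), a feedback inhibitor, fell by 1.27 and its partner Tnip2 by 0.97. The deubiquitinase Cyld rose by 1.99, the kinase regulator Ikbkg (NEMO) by 1.19 and the kinase Ikbke by 0.88.

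Of 12 genes that stabilise or degrade chemokine mRNAs, 5 rose, 2 fell and 5 did not pass. Over all genes tested 48.1% rose and 17.6% fell. With median ratio scaling 1 of the 12 rose and 4 fell, against 29.3% and 28.6% of all genes tested. Zfp36 (tristetraprolin), which destabilises AU-rich mRNAs such as those of cytokines, fell from 310 and 125 FPKM in primary MSCs to 41.8 to 53.0 FPKM in cultured MSCs (log2 fold change -2.03, adjusted p = 0.000618). Its relative Zfp36l1 fell by 3.00, while Elavl1 (HuR), which stabilises such mRNAs, rose by 1.42. Zfp36l2 and Hnrnpd rose by 1.07 and 0.95, and neither passed with median ratio scaling (adjusted p = 0.130 and 0.0969). The rise of Zfp36l2 was 0.88 without primary replicate 2. Hnrnpd passed the filter only through the cultured libraries, so a difference follows from the filter.

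Of 16 tested inflammatory genes of stroma other than chemokines, 8 rose, 5 fell and 3 did not pass. Over all genes tested 48.1% rose and 17.6% fell. The median of the list was 1.19 against 0.45 for all genes. With median ratio scaling 6 rose and 5 fell, against 29.3% and 28.6% of all genes tested. Il6 had 10.8 and 2.55 FPKM in primary MSCs against 0.32 to 1.38 FPKM in cultured MSCs (log2 fold change -2.71, adjusted p = 0.00613), and the adhesion molecule Icam1 and the gp130 cytokine Il11 fell too, with log2 fold changes of -2.47 and -2.38. The change of Il6 shrank to -1.69 without primary replicate 1 when the genes of the full filter were kept. The interleukin 1 receptor antagonist Il1rn rose by 5.84, the epithelial-type cytokine Tslp by 3.99 and the pattern recognition protein Ptx3 by 2.74. Il1rn and Tslp passed the filter only through the cultured libraries and Il11 only through the primary libraries, so these calls follow from the filter. Il1rn, which macrophages also make, had 20.1 FPKM in cultured replicate 3 against 45.4 to 52.0 FPKM in the other 3.

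Markers of macrophages and monocytes were higher in the cultured libraries and, among these, lowest in replicate 3. Of 15 markers, 11 were tested and all 11 rose, against 48.1% of all genes tested, but 7 of the 11 passed the filter only through the cultured libraries. Their summed level was 268, 336, 95.1 and 268 FPKM in cultured replicates 1 to 4 and 18.6 and 24.2 FPKM in primary replicates 1 and 2, and 14 of the 15 were lowest among the cultured libraries in replicate 3, against 27.5% of all genes tested. Ptprc stood at 0.34, 0.47, 0.12 and 0.25 FPKM in the cultured libraries and Lyz2 (lysozyme) at 180, 221, 60.6 and 175 FPKM. Among chemokines that macrophages are known to make, Ccl3, Ccl4 and Ccl6 were lowest in replicate 3 and Ccl5 in replicate 1, with Ccl6 at 1.55, 1.76, 0.89 and 1.05 FPKM. Ccl3 and Ccl4, which were too low to be tested and are named after their values were seen, stood at 0.11 and 0.14 FPKM there. Replicate 3 had 1.04 times the mean of the other cultured libraries for Ccl9, 0.875 times for Ccl5, 0.612 times for Ccl6 and 0.315 times for Lyz2. The same ratio was 1.25 for Cxcl5, 1.37 for Cx3cl1, 1.05 for Ccl7, 1.13 for Ccl2 and 1.12 for Cxcl16. Without replicate 3 the log2 fold changes of Ccl9, Cxcl5 and Cx3cl1 were 5.24, 5.39 and 1.65. The part of macrophages in the rises was not tested. The 3 osteoclast markers tested fell, against 17.6% of all genes tested. That list summed to 819 and 643 FPKM in primary MSCs against 259 to 288 FPKM in cultured MSCs. Most of it came from Ctsk, with 632 and 509 FPKM in primary MSCs and 252 to 279 FPKM in cultured MSCs. Ocstamp, too low to be tested, went the other way, with 0 and 0.06 FPKM in primary MSCs and 0.20 to 0.35 FPKM in cultured MSCs. Other lists were mixed. Of 4 tested Lepr stroma markers 1 rose (Kitl), 2 fell (Lepr and Adipoq) and 1 did not pass. Of 3 tested pericyte and smooth muscle markers 1 rose (Acta2), 1 fell (Rgs5) and 1 did not pass. Over all genes tested 48.1% rose and 17.6% fell. Rgs5 passed the filter only through the primary libraries, so its call follows from the filter. The summed neutrophil markers of the groups overlapped, at 3.85 to 8.15 FPKM in culture and 6.76 and 10.3 FPKM in primary MSCs. These markers are named after their values were seen, and their part in the changes of the 10 genes was not tested.

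**Figure D5:**
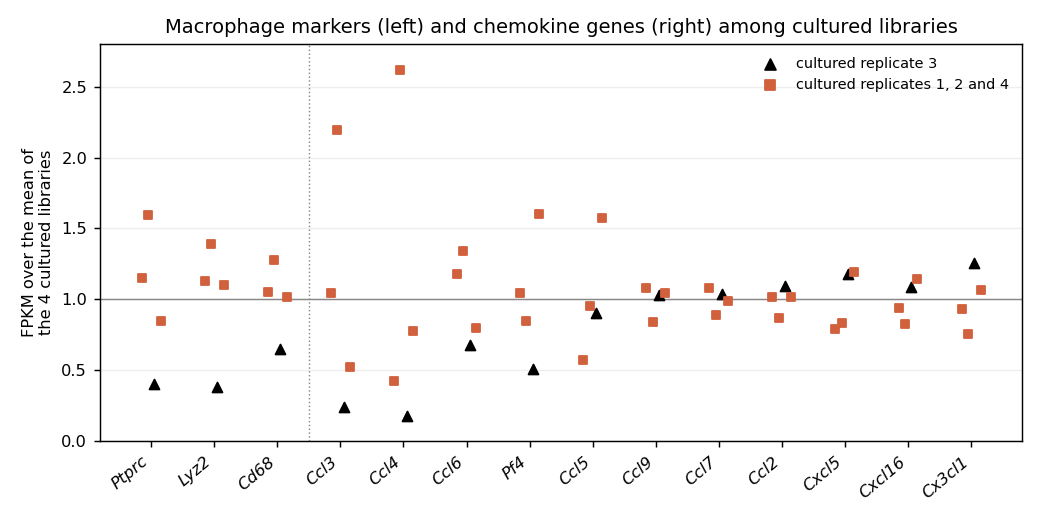
FPKM in each cultured library divided by the mean of the 4 cultured libraries, for 3 macrophage or leukocyte markers (left of the dotted line) and 11 chemokine genes (right). Triangles are cultured replicate 3 and squares replicates 1, 2 and 4. Replicate 3 is the lowest for Ptprc, Lyz2, Cd68, Ccl3, Ccl4, Ccl6 and Pf4, Ccl5 is lowest in replicate 1, and replicate 3 lies near or above 1 for Ccl9, Ccl7, Ccl2, Cxcl5, Cxcl16 and Cx3cl1.

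For each of the 10 genes the gene with the most similar profile was taken as that with the smallest Euclidean distance between log2(FPKM + 0.1) values over the 6 libraries, each profile centred on its own mean. With 6 libraries in 2 groups this measures mainly the size of the change. The nearest were Actr3b to Ccl2 (distance 0.25), Arhgef5 to Ccl7 (0.207), Ttk to Ccl9 (0.495), Klk8 to Cxcl5 (0.473), Pabpc1 to Cx3cl1 (0.292), Igfbp5 to Cxcl14 (0.335), Slc25a47 to Cxcl16 (0.211), Crispld2 to Ccl19 (0.429), Epha3 to Cxcl1 (0.552) and Gm21104 to Ccl11 (1.03). None of them is a chemokine gene.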

How the data were processed

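RNA of 2 primary and 4 cultured MSC libraries was made into cDNA with the SMART-Seq v4 kit and sequenced. According to the submitters' processing notes and the methods, the authors aligned reads to GRCm38.p6 with HISAT2 2.0.4 and Bowtie2 2.2.5, estimated gene levels with RSEM 1.2.8 and deposited FPKM values with 2 decimals for 17457 genes. A column of log2 fold changes that the authors deposited was not used. The table holds no read counts, so the reads behind single values were not derived (the methods give a range of reads over samples only) and a log-scale test replaced the authors' count test.

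Genes that reached 1 FPKM in 2 or more libraries were fitted with limma 3.58.1 (R 4.3.3) on log2(FPKM + 0.1), with moderated variances with a trend and Benjamini-Hochberg adjustment over all 11405 genes. The test was also tested on simulated data. Gene IDs were matched to RefSeq for coordinates (17406 of 17457, 99.71%), and promoters came from RefSeq GRCm38.p6. Figures were drawn with matplotlib 3.10.9 in Python 3.11.15.

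The 10 genes and all gene lists, written from general knowledge, were chosen with earlier results of these data known. Named were the 10 genes, tested chemokines and receptors, the 3 largest rises and 3 largest falls of each other list, the 2 most abundant macrophage markers, the sort markers and the nearest profiles. Other genes are marked in the text as chosen later. Alternatives were pseudocounts of 0.01 and 1, other filters, median ratio scaling, quantile normalization, TPM, no trend, robust moderation, a block for replicate numbers, and each library left out in turn. Replicates were separate samples per the labels. A later choice was leaving out a primary library while keeping the genes of the full filter.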

Additional observations from a re-analysis of the deposited data

Results flagged for a closer look

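Among the 60 named genes, 2 had a cultured library far from the other 3 by a test of the gap over the range, and chance flags about 1 in 20 groups. Ackr1 was listed at 0.03 FPKM in cultured replicate 2 and at 0 in the other 3, a value near the rounding of the table. Ifngr1 stood at 43.18 FPKM in cultured replicate 1 and at 37.42 to 37.88 FPKM in the others.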

How the results depend on the processing

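Of the 10 chemokine genes, Ccl9, Ccl11, Ccl19, Cxcl1, Cxcl5, Cxcl14, Cxcl16 and Cx3cl1 kept direction under every alternative that gave a value. They kept the call in every fit with both primary libraries. Ccl11 and Ccl19 gave no value under the refitted filter when a primary library was left out. Ccl2 turned to -0.09 with median ratio scaling and -0.02 with quantile normalization, and Ccl7 lost its call with both. When single libraries were left out, Ccl2 ranged from -0.61 to 1.30, Cxcl10 from -1.80 to 3.27 and Ly6a from -0.56 to 0.14. Cxcl10 was -0.08 with a pseudocount of 1, and Cxcl12 was -0.25 with both scalings. The cause of these turns was not tested.

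With median ratio scaling and with quantile normalization alike, 4 further chemokines, 8 upstream receptors and 4 mRNA turnover genes fell. Of all 11405 genes, 3267 and 3039 fell in these fits, in the same order, and 3346 and 3656 rose. NF-kB genes that fell numbered 11 and 9, and mRNA turnover genes that rose 1 and 2. NF-kB genes that rose numbered 3 with median ratio scaling. Upstream receptors that fell numbered 3 of 27 without a trend in limma, against 2021 of all 11405 genes. With no filter more genes were tested, and 5 of 25 further chemokines and 4 of 18 receptors rose, against 5822 of all 16845 genes. Leaving out single cultured libraries, 5 of the 10 genes, 2 further chemokines, 5 receptors and 4 proteases fell in every fit. In the same fits 3 to 4 upstream receptors fell, 3 to 4 of the 10 genes rose and 2 to 3 proteases rose. Of 11330 to 11356 genes tested, 1797 to 1955 fell and 4953 to 5241 rose in these fits. Without a primary library, genes low in cultured MSCs no longer passed the filter. Counts of such fits rest on a single library in that group, do not measure the spread among primary libraries and are not given. With the genes of the full filter kept, Ccl11 was -6 without primary replicate 1 and -7.23 without primary replicate 2. Ccl19 kept its direction in both, and no fold is given because all cultured libraries listed it at 0. The sizes for genes near 0 in 1 group depend on the pseudocount. With pseudocounts of 0.01 and 1, Ccl11 was -8.76 and -3.85, Ccl9 6.13 and 3.18, and Cxcl5 6.52 and 3.03.

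The replicate numbers were not taken as pairs, since the primary pools came from 4 and 6 mice and each cultured library from 2. Same-numbered deviations correlated at 0.121 and 0.052 across genes in 2 pairs. With 2 primary libraries their deviations mirror each other, so this check cannot decide whether the numbers pair the samples. With the number as a block, 4 of the 10 genes rose and 5 fell, 3 upstream receptors fell, 3 NF-kB genes rose and 1 mRNA turnover gene rose. In that fit 4594 of all 11405 genes rose and 1597 fell, fewer than the 5485 and 2008 without the block. Reads behind single values were not derived, and values near 0 are limited by rounding.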
